A study of Mus musculus and Homo sapiens with 32 samples.

Results

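The genes followed here are 8 genes grouped by name as uroplakin and urothelial genes. Urothelium is the epithelium that lines the renal pelvis, ureter and bladder. They are the uroplakin genes Upk1a, Upk1b, Upk2, Upk3a and Upk3b, the surface protein gene Psca, and the small proline-rich protein genes Sprr1a and Sprr2f. They were chosen by name from the 57180 genes of a table of obstructed and sham-operated mouse kidneys. No rule on measured values was used, but earlier results of these data were known when they were chosen. All 8 were present and passed the filter on low counts. The question asked of them was how much renal pelvis tissue each kidney library holds, read as the level of these genes library by library.

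Bulk mRNA was sequenced from kidneys of mice with the genotype Pcmt1 fl/fl or Pcmt1 tKO, an abbreviation that the labels do not spell out. Each genotype was given 3 treatments, written in the labels as Sham+DMSO, UUO+DMSO and UUO+LY2109761, and each of the 6 groups held 3 libraries. UUO is unilateral ureteral obstruction, in which 1 ureter is tied so that urine backs up into the pelvis of that kidney, and LY2109761 blocks the kinase activity of both TGF-β receptors. DMSO, the solvent, was given to all sham groups and to the UUO groups without LY2109761, so every group without the inhibitor shares it. The labels give no strain, age, sex or Cre driver, do not say which parts of the kidney were taken, and do not say whether replicates were separate animals. The p-values therefore rest on the variation among these libraries alone, part of which may be technical.

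Uroplakins are membrane proteins of the umbrella cells, the uppermost cells of the urothelium, where they form the rigid plaques that keep urine out of the tissue. The tetraspanins uroplakin 1a and 1b each carry a partner out of the endoplasmic reticulum: 1a pairs with uroplakin 2, and 1b with uroplakin 3a or 3b. Within the kidney this epithelium covers the pelvis, so uroplakin transcripts in a kidney library come with the pelvic lining, except that Upk1b and Upk3b are also expressed by mesothelium. Which cells of these kidneys made the Sprr1a and Sprr2f transcripts was not tested. Small proline-rich proteins are substrates that transglutaminases cross-link into the cornified envelope of stratified epithelia.

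The sequences shown first are the stretches before the start sites of the 2 small proline-rich genes that rose after obstruction in fl/fl kidneys, with 2 uroplakin genes for comparison. RefSeq entries (GRCm38.p6) were found for 5 of the 8 genes, namely Upk1a, Upk3a, Upk3b, Sprr1a and Sprr2f, and each line gives, for 4 of them, the 250 bases before the start, 5′ to 3′ on the strand of the gene. Capitals mark matches to 4 motifs searched on both strands. The site of AP-1 factors was written TGANTCA. A site of the zinc finger factors that include Gata3 was written AGATAA. The box bound by the basal transcription machinery was written TATAAA. A site of grainyhead-like factors was written AACCNGTT. No matches overlapped each other in these genes.
Sprr2f, chr3:92364937-92365186, plus strand: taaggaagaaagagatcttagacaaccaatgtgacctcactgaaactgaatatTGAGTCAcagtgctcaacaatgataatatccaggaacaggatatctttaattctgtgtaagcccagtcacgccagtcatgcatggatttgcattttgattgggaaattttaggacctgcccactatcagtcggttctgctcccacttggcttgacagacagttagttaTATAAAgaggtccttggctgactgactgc
Sprr1a, chr3:92485882-92486131, minus strand: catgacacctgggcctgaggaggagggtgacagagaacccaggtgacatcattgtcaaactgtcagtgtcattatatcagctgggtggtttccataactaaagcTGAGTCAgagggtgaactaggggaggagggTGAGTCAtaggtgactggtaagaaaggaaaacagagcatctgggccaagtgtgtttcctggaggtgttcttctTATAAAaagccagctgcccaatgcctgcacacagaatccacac
Upk3a, chr15:85016891-85017140, plus strand: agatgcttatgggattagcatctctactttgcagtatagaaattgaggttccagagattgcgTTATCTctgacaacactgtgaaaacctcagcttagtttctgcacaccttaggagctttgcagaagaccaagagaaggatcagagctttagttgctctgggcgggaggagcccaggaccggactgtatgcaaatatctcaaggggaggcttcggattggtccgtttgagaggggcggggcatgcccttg
Upk1a, chr7:30612735-30612984, minus strand: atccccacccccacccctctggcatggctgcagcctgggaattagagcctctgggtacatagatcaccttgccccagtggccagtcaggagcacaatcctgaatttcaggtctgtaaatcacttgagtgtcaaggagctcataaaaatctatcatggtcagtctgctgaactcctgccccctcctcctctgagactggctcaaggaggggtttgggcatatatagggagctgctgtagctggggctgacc

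Sprr2f held the AP-1 letters with their first base 197 bases before the start and the TATA letters 29 bases before it. Sprr1a held the AP-1 letters at 146 and 116 bases and the TATA letters at 43 bases before the start. Upk3a held the GATA letters at 188 bases, on the opposite strand, and the printed window of Upk1a held none of the 4 motifs. For Upk1a and Sprr1a the RefSeq start lies inside the GENCODE span given below. Part of the printed window of these genes therefore lies within that span, and distances are from the RefSeq start. Among 27025 promoters of the same length, 6.87% held the AP-1 letters, 10.3% the GATA letters, 13.0% the TATA letters and 1.71% the grainyhead-like letters. A match is a description of letters, and binding was not measured.

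By gene identifier in GENCODE M21 (GRCm38), the genes lie on 6 chromosomes and overlap no other annotated gene. Upk1a (ENSMUSG00000006313) spans chr7:30603092-30612847 on the minus strand, Upk1b (ENSMUSG00000049436) chr16:38773184-38800328 on the minus strand and Upk2 (ENSMUSG00000041523) chr9:44452715-44454976 on the minus strand. Upk3a (ENSMUSG00000022435) spans chr15:85017141-85022547 and Upk3b (ENSMUSG00000042985) chr5:136038496-136046487, both on the plus strand. Psca (ENSMUSG00000022598) lies on chr15:74714839-74717069 on the plus strand. Sprr1a (ENSMUSG00000050359) spans chr3:92483952-92485895 on the minus strand and Sprr2f (ENSMUSG00000050635) chr3:92365187-92366442 on the plus strand, both in the gene cluster of cornified envelope proteins. The gene starts written in the deposited table are those of GENCODE M21 for 0 of the 8 genes and for 1412 of 51884 genes in all, so its positions were not used, and which build they are on was not tested. Of the 560 windows of 50 bases in the Sprr2f transcripts, 4 also occur in Sprr2e, and the other 7 genes share no such window with any other gene.

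Library totals ran from 13015669 to 19565376 counts. Mitochondrially encoded genes took 30.8% to 35.5% of counts in fl/fl sham libraries and 33.7%, 49.7% and 69.5% in tKO sham replicates 1, 2 and 3. In the UUO groups they took 7.43% to 18.8%. TMM scaling factors, which correct library sizes for such differences in composition, had their minimum, 0.352, in tKO sham replicate 3 and their maximum, 1.33, in an obstructed tKO kidney. Pcmt1 itself stood at 42.8 to 48.9 CPM in fl/fl sham libraries, and at 22.7 and 24.3 CPM in tKO sham replicates 2 and 3. In the library labelled tKO sham replicate 1 it was 49.3 CPM, which goes against its label. In the UUO groups with LY2109761 the genotypes overlapped, since fl/fl replicate 3 had 25.7 CPM of Pcmt1 against 23.1 to 28.0 CPM in tKO and 31.3 CPM or more in the other fl/fl libraries. For the genes followed here, the changes called with LY2109761 in fl/fl kidneys are therefore also given without that fl/fl library. Their results on tKO sham kidneys are also given without tKO sham replicate 1 where that changes the call. Tests of other genes named below include these libraries and were not repeated without them. CPM, the counts of a gene scaled to the TMM-adjusted library size, is the level used throughout.

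**Figure D1:**
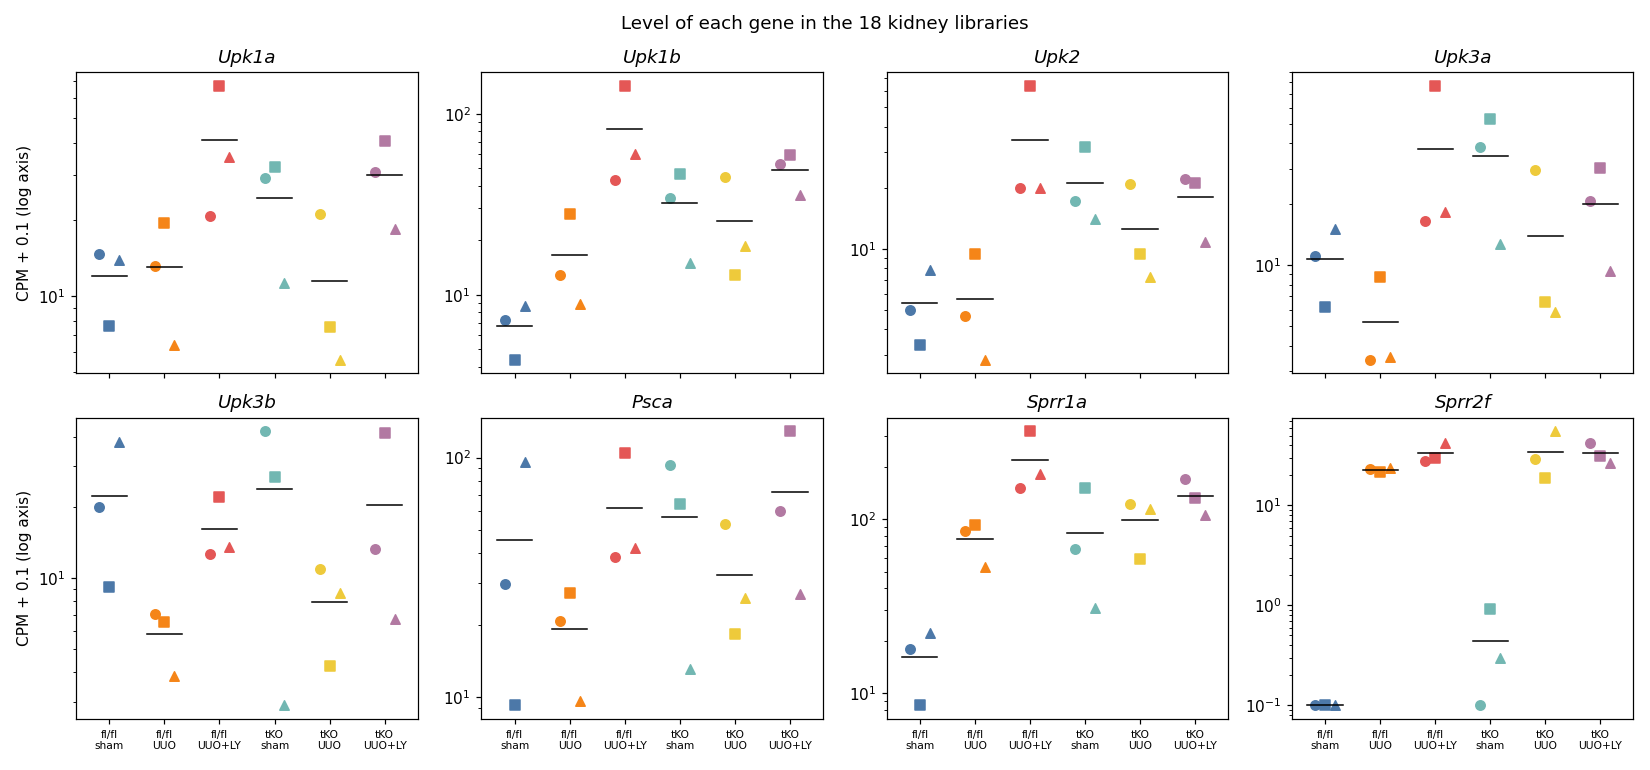
Level of each of the 8 genes in the 18 kidney libraries, in CPM plus 0.1 on a log axis, with 1 panel per gene and 1 column per group. Circles, squares and triangles are the libraries of a group in order of replicate number and horizontal lines are group means. Within a group the libraries of the uroplakin genes lie far apart, whereas Sprr2f is at or near 0 in all 6 sham libraries and at 18.7 CPM or more in all 12 UUO libraries.

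The libraries differed widely in how much urothelial RNA they held. The summed level of Upk1a, Upk1b, Upk2 and Upk3a, the genes that encode the plaque proteins, ran from 21.2 CPM in fl/fl sham replicate 2 to 351 CPM in fl/fl UUO replicate 3 with LY2109761, a 16.5-fold range with a median of 69.4 CPM. Group means were 34.5 ± 12.1 CPM in fl/fl sham, 39.9 ± 22.5 in fl/fl UUO and 195 ± 136 in fl/fl UUO with LY2109761 (SD, n = 3). They were 112 ± 55.7 CPM in tKO sham, 63.0 ± 46.0 in tKO UUO and 117 ± 39.1 in tKO UUO with LY2109761 (SD, n = 3). The highest library exceeded the lowest of the same group by 2.04 to 3.51 times. In RNA from whole tissue, a larger piece of pelvic lining and more RNA per urothelial cell cannot be told apart, so these levels are not a share of tissue.

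The same libraries were high or low for nearly all of the genes. In the fl/fl UUO group with LY2109761, replicate 3 was the highest of the 3 libraries for 7 of the 8 genes, and in the tKO UUO group replicate 1 was the highest for the same 7, all but Sprr2f. Replicate 2 was the highest in fl/fl UUO for 6 genes and in tKO sham for 6 genes. At the low end, tKO UUO with LY2109761 replicate 3 and fl/fl UUO with LY2109761 replicate 1 were the lowest of their groups for all 8 genes, and fl/fl sham replicate 2 and tKO sham replicate 3 for 7. With column totals in place of TMM the counts for replicate 3 of fl/fl UUO with LY2109761 and replicate 1 of tKO UUO stayed at 7, and fl/fl UUO with LY2109761 replicate 1 was the lowest for 7 in place of 8.

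**Figure D2:**
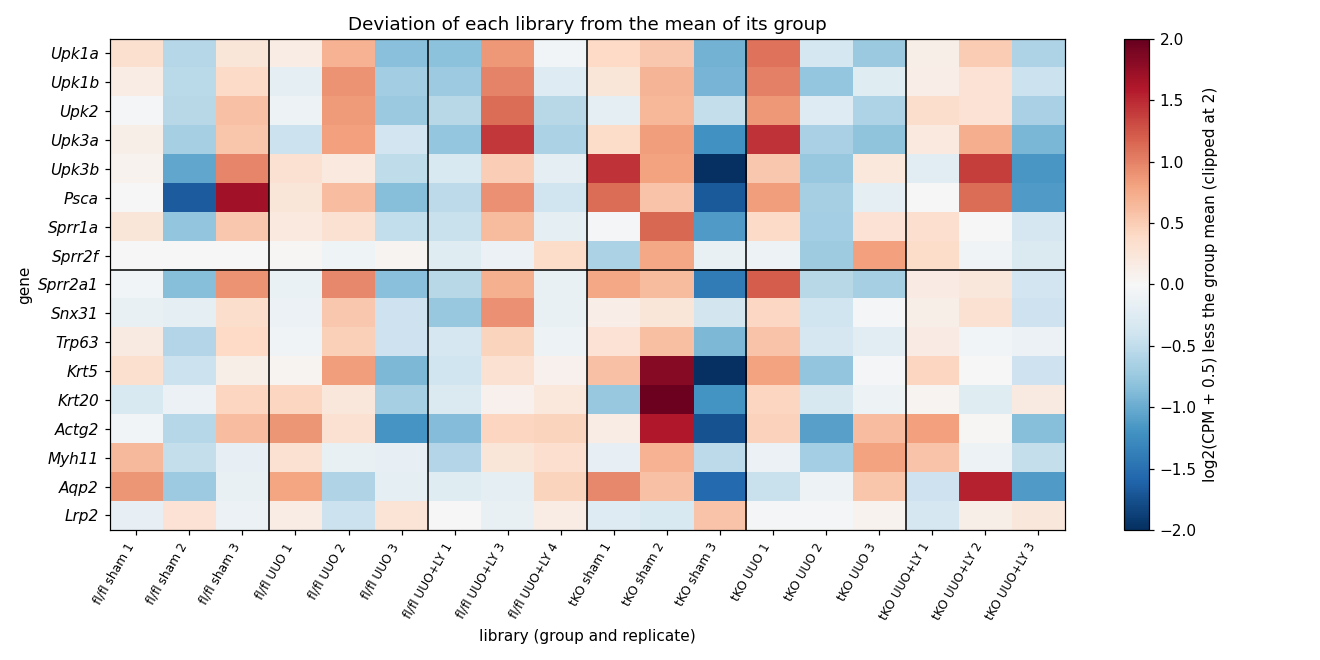
Deviation of each library from the mean of its group, as log2(CPM + 0.5) less the group mean, clipped at 2, for the 8 genes above the horizontal line and 9 other genes below it. Columns are the 18 libraries, with vertical lines between groups. The first 7 genes share their columns of high and low libraries, while Sprr2f and Lrp2 do not follow them.

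Once group means were removed, the 4 plaque genes moved together across the 18 libraries, with Pearson r of 0.89 to 0.95 for their 6 pairs. The points share library size and scaling, and the r values are given as a description. Psca followed the mean of the 4 genes with r = 0.83, Sprr1a with 0.79 and Upk3b with 0.71. Sprr2f did not, with r = 0.07, at rank 6884 of the 16380 genes compared, but it was at or near 0 in the 6 sham libraries and has little to vary there. Over the 12 UUO libraries alone its r was −0.07, against 0.89 for Psca, 0.77 for Sprr1a and 0.66 for Upk3b. Psca and Upk3b, with r = 0.93 between them, were closer to each other than either was to Upk2, for which r was 0.75 and 0.56.

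The genes most like the plaque genes in this measure were named next. By the rule of the 8 highest correlations over 18 libraries they were Sprr2a1 (r = 0.93), Snx31 (0.91), Trp63 (0.90), Sprr2a3 (0.90), Tmprss13 (0.90), Ly6d (0.89), Sdr42e1 (0.89) and Cers3 (0.88). Trp63 encodes the p63 factor of basal epithelial cells and Ly6d a surface protein of the same family as Psca. Sprr2a1 and Sprr2a3 are close copies, and reads may be split between them in a way the sources used here do not describe. Of the 8, the lists used here already held Sprr2a1, Snx31, Trp63, Sprr2a3 and Ly6d. Krt5, the keratin of basal cells, had r = 0.75 and Krt20, the keratin of umbrella cells, 0.51. Actg2, the smooth muscle actin of the muscle coat under the pelvic lining, had r = 0.67, Myh11, a smooth muscle myosin also made in vessel walls, 0.34, and Aqp2, the water channel of collecting ducts, 0.27. Lrp2, the megalin gene of proximal tubules, had r = −0.70.

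Obstructed and sham kidneys of fl/fl mice were compared first, with edgeR's quasi-likelihood test and Benjamini-Hochberg adjustment over all 19256 genes tested. The 2 small proline-rich genes rose and no uroplakin gene passed the test. These 2 calls among 8 genes stand beside 39.6% of all genes tested, of which 20.9% were higher and 18.7% lower. The median log2 change of the 8 genes was 0.09 and that of all genes 0.02. Another scaling would move all genes here: with column totals the all-gene median shifted by 0.74, and changes are read relative to that.

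Sprr2f had 0 counts in all 3 fl/fl sham libraries. It stood at 23.2, 21.3 and 23.7 CPM in the 3 fl/fl UUO libraries, a mean of 22.7 ± 1.23 CPM (SD, n = 3), and the groups did not overlap. This was at least 327-fold higher than sham, against a floor of 3 counts over the sham group that covers counting error only (edgeR adjusted p = 1.7e-06). With LY2109761 the fl/fl UUO libraries held 27.5, 29.8 and 41.8 CPM, at least 482-fold above the same floor. Within fl/fl UUO the highest library exceeded the lowest by 1.11 times for Sprr2f and by 3.14 times for Upk1b.

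Sprr1a was present in sham kidneys and rose after obstruction. It stood at 17.8, 8.43 and 22.1 CPM in fl/fl sham and at 85.8, 92.9 and 53.1 CPM in fl/fl UUO, and the groups did not overlap. The log2 change was 2.26 (SE 0.51, edgeR adjusted p = 0.0023), a 4.79-fold rise. In FPKM, which allows levels to be compared between genes of different length, Sprr1a went from 15.2 ± 7.17 to 119.9 ± 33.6 (SD, n = 3) and was the most abundant of the 8 genes in fl/fl UUO.

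The uroplakin genes differed among themselves in direction. Upk1a, the tetraspanin partner of uroplakin 2, stood at 14.5, 7.54 and 13.7 CPM in fl/fl sham and at 13.0, 19.3 and 6.32 CPM in fl/fl UUO. Upk2 stood at 4.90, 3.25 and 7.72 CPM in sham and at 4.56, 9.31 and 2.73 CPM in UUO. For both genes the groups overlapped, with log2 changes of 0.11 (SE 0.57, edgeR adjusted p = 0.901) and 0.06 (SE 0.58, edgeR adjusted p = 0.947).
Upk1b, the other tetraspanin, stood at 7.18, 4.29 and 8.55 CPM in sham and at 12.7, 27.7 and 8.84 CPM in UUO. Its partner Upk3a stood at 10.9, 6.14 and 14.9 CPM in sham and at 3.31, 8.63 and 3.43 CPM in UUO. Every UUO library thus held more Upk1b than every sham library, whereas for Upk3a the groups overlapped and the UUO mean was the lower. Upk1b gave a log2 change of 1.30 (SE 0.58, edgeR adjusted p = 0.0876) and Upk3a of −1.06 (SE 0.77, edgeR adjusted p = 0.297), neither past the threshold of 0.05.
Upk3b stood at 20.03, 9.10 and 37.9 CPM in sham and at 6.96, 6.45 and 3.75 CPM in UUO, without overlap, and its log2 change was −1.96 (SE 0.77, edgeR adjusted p = 0.0553). Psca stood at 29.5, 9.10 and 96.1 CPM in sham and at 20.7, 27.1 and 9.49 CPM in UUO, with a log2 change of −1.23 (SE 0.82, edgeR adjusted p = 0.252). Other settings called these genes. Upk1b was called higher by DESeq2 (adjusted p = 0.0470) and by edgeR with column totals (log2 change 2.04, adjusted p = 0.0153). Upk3b was called lower by DESeq2 (adjusted p = 0.0243), by edgeR on only these 2 groups (adjusted p = 0.0168) and by edgeR without fl/fl sham replicate 2 (adjusted p = 0.0385).

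**Figure D3:**
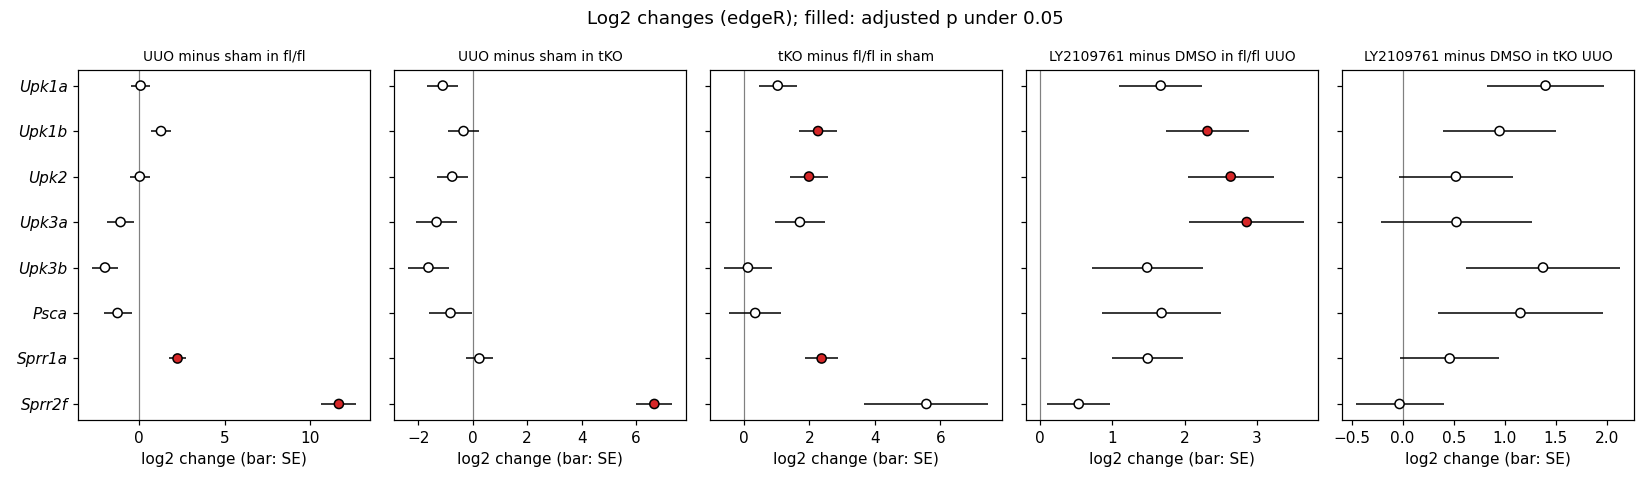
Log2 change of each gene in 5 comparisons, from edgeR, with bars of 1 SE and filled points where the adjusted p is under 0.05. Each panel has its own horizontal axis. In fl/fl mice Sprr1a and Sprr2f lie to the right of 0 after obstruction, and in the fl/fl comparison of LY2109761 with DMSO all 8 points lie above 0, of which 3 are filled.

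In tKO mice only Sprr2f passed the test after obstruction, 1 of 8 genes beside 41% of all genes tested, 21.6% higher and 19.4% lower. Sprr2f had 0, 8 and 1 counts in tKO sham replicates 1, 2 and 3, equal to 0, 0.831 and 0.199 CPM. In tKO UUO it stood at 28.9, 18.7 and 55.2 CPM, 105-fold higher as a ratio of pooled counts, with a 95% interval of 55.4 to 231 from an exact binomial method that covers counting error only. The fitted log2 change was 6.67 (SE 0.66, edgeR adjusted p = 4.8e-06). In tKO UUO with LY2109761 the libraries held 42.5, 31.4 and 26.7 CPM, 106-fold above sham.

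Sprr1a did not pass in tKO mice. It stood at 67.1, 152 and 30.7 CPM in tKO sham and at 122, 58.6 and 115 CPM in tKO UUO, overlapping, with a log2 change of 0.24 (SE 0.48, edgeR adjusted p = 0.729). In tKO sham, 2 of the 3 libraries lay above the lowest fl/fl UUO library, which held 53.1 CPM. The difference between genotypes in the change with obstruction was −2.02 for Sprr1a (SE 0.70, unadjusted p = 0.0107, edgeR adjusted p = 0.231) and did not pass. For that interaction edgeR called 0 of the 8 genes, beside 0.0415% of all genes, with 2 at an unadjusted p under 0.05 and 0 by DESeq2.

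All 5 uroplakin genes and Psca had negative log2 changes in tKO mice, none past the threshold. Upk1a stood at 29.0, 32.2 and 11.2 CPM in tKO sham and at 21, 7.43 and 5.51 CPM in tKO UUO (log2 change −1.10, SE 0.57, edgeR adjusted p = 0.138). Upk3a stood at 38.4, 53.0 and 12.6 CPM in sham and at 29.3, 6.48 and 5.79 CPM in UUO (−1.33, SE 0.75, edgeR adjusted p = 0.172). In both genes tKO UUO replicate 1 lay with the sham libraries, and without it Upk1a (−1.91, edgeR adjusted p = 0.0225) and Upk3a (−2.50, edgeR adjusted p = 0.0244) passed.
Upk1b stood at 34.1, 46.5 and 14.95 CPM in tKO sham and at 44.9, 12.7 and 18.5 CPM in tKO UUO. Upk2 stood at 17.2, 31.7 and 13.95 CPM in sham and at 20.8, 9.33 and 7.15 CPM in UUO. Both genes overlapped between the groups. The log2 changes were −0.34 for Upk1b, −0.76 for Upk2 and −0.82 for Psca, and with column totals they turned to 0.62, 0.27 and 0.01, where the all-gene median shifted by 1.05. Upk3b stood at 42.0, 26.9 and 2.79 CPM in sham and at 10.8, 4.14 and 8.56 CPM in UUO. Its change of −1.63 did not pass (SE 0.76, edgeR adjusted p = 0.102), and without tKO sham replicate 3, which had 14 counts of this gene, it was −2.13 and passed (edgeR adjusted p = 0.0214).

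Ratios between uroplakin partners within a library do not depend on library scaling. They were taken from FPKM because Upk1b and Upk3a had been seen to go opposite ways in these libraries, so they describe that pattern and are given without a test. The ratio of Upk3a to Upk1b was 3.17, 2.97 and 3.62 in fl/fl sham libraries and 2.34, 2.36 and 1.74 in tKO sham libraries. After obstruction it was 0.540, 0.646 and 0.805 in fl/fl and 1.36, 1.06 and 0.651 in tKO. No UUO library reached the lowest sham library. Group means were 3.25 ± 0.334 in fl/fl sham and 0.664 ± 0.133 in fl/fl UUO, and 2.15 ± 0.351 in tKO sham and 1.02 ± 0.354 in tKO UUO (SD, n = 3).

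The ratio of Upk1b to Upk1a was 0.310 to 0.905 in sham libraries and 0.614 to 2.10 in UUO libraries, and the ranges overlapped. The ratio of Upk3b to Upk1b ran from 0.120 to 2.85 in sham and from 0.149 to 0.352 in UUO, and the only sham library within or below the UUO range was tKO sham replicate 3. The ratio of Upk2 to Upk1a overlapped, at 0.444 to 1.64 in sham and 0.461 to 1.70 in UUO. With LY2109761 the ratio of Upk3a to Upk1b was 0.542 to 1.12, within the range of the UUO libraries with DMSO. The mitochondrial share also moved with obstruction, at 30.8% to 69.5% of counts in these sham libraries and 7.43% to 16.2% in the UUO libraries, and its part in the ratios was not tested.

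**Figure D4:**
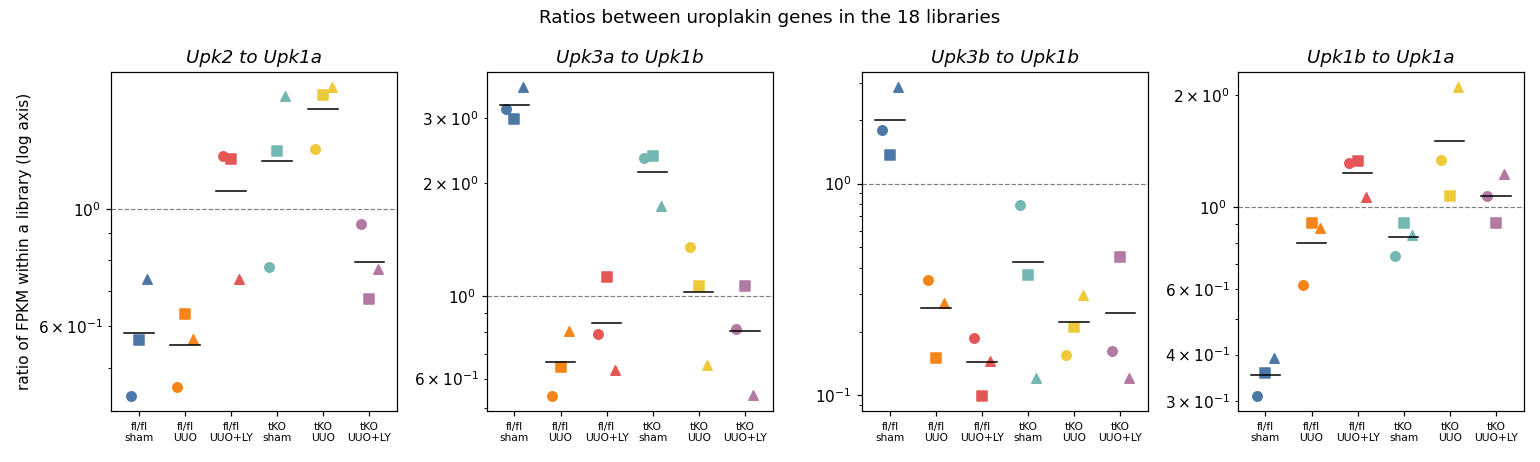
Ratios of FPKM between uroplakin genes within each of the 18 libraries, on log axes, with the dashed line at a ratio of 1. Circles, squares and triangles are the libraries of a group and horizontal lines the group means. All 6 sham libraries lie above all 12 UUO libraries for Upk3a to Upk1b.

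The genotypes were next compared within sham kidneys, where 3 of the 8 genes were higher in tKO, beside 12.3% of all genes tested. Sprr1a had a log2 difference of 2.37 (SE 0.51, edgeR adjusted p = 0.0124), Upk1b by 2.26 (SE 0.59, edgeR adjusted p = 0.0249) and Upk2 by 1.99 (SE 0.59, edgeR adjusted p = 0.0408). For these genes every tKO sham library held more than every fl/fl sham library, for Upk1b 14.95 to 46.5 against 4.29 to 8.55 CPM and for Upk2 13.95 to 31.7 against 3.25 to 7.72 CPM. How many of all genes were without overlap in this way was not counted. All 8 log2 differences were above 0, with a median of 1.85 against 0.03 for all genes. Upk3a differed by 1.71 (SE 0.76, edgeR adjusted p = 0.146), Upk1a by 1.03 (SE 0.58, edgeR adjusted p = 0.244), Psca by 0.34 (SE 0.80, edgeR adjusted p = 0.819) and Upk3b by 0.12 (SE 0.74, edgeR adjusted p = 0.939). Sprr2f did not pass (edgeR adjusted p = 0.0675), and no fold is given because fl/fl sham held 0 counts.

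These 3 calls rest on the scaling and on single libraries. With column totals 0 genes passed, and a fit on only these 2 groups also gave 0, while DESeq2 called 4. Leaving out fl/fl sham replicate 2 or tKO sham replicate 2 left 0 calls, leaving out fl/fl sham replicate 1 or 3 left 1, and leaving out tKO sham replicate 3 left 2. Without the library labelled tKO sham replicate 1, whose Pcmt1 level goes against the label, 4 genes passed, Sprr2f in addition (edgeR adjusted p = 0.0107), on 8 and 1 counts in the remaining tKO sham libraries against 0 in fl/fl sham. The mitochondrial share was above the fl/fl sham range in tKO sham replicates 2 and 3, and smooth muscle genes summed to 825 to 1244 CPM in tKO sham against 609 to 816 CPM in fl/fl sham. Of the genes listed for mesothelium and capsule, Msln stood at 6.38 to 14.6 CPM in tKO sham against 1.41 to 5.21 CPM in fl/fl sham. Gpm6a of that list went the other way, at 45.3 to 57.2 CPM in tKO sham against 114 to 155 CPM. The 8 genes of the list other than Upk1b and Upk3b summed to 115 to 199 CPM against 162 to 218 CPM, and overlapped. The part of these in the differences was not tested.

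No difference between genotypes was detected for these genes in UUO kidneys. Of 8 genes edgeR called 0, beside 17.9% of all genes tested, with 0 at an unadjusted p under 0.05 and 0 by DESeq2. The log2 differences of tKO from fl/fl ran from −0.18 for Upk1a to 1.44 for Upk3a (SE 0.76, edgeR adjusted p = 0.205). With LY2109761 the genotypes again gave 0 calls by edgeR, beside 2.98% of all genes, with 0 at an unadjusted p under 0.05 and 0 by DESeq2, and the differences ran from −0.95 for Upk2 to 0.34 for Upk3b.

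LY2109761 was compared with DMSO in obstructed kidneys, and in fl/fl mice 3 of the 4 plaque genes, all but Upk1a, were higher with the inhibitor. Upk2 had a log2 rise of 2.64 (SE 0.59, edgeR adjusted p = 0.0260), Upk1b by 2.32 (SE 0.58, edgeR adjusted p = 0.0349) and Upk3a by 2.86 (SE 0.79, edgeR adjusted p = 0.0497), 3 of 8 genes beside 5.15% of all genes tested. All 8 genes had log2 changes above 0, with a median of 1.68 against 0.02 for all genes. All 8 were also without overlap between the 3 libraries of each group. The share of all genes without such overlap was not counted. The genes other than Sprr2f shared their high and low libraries, so these are not 8 separate results. With the inhibitor, Upk2 stood at 19.8, 64.0 and 19.8 CPM, Upk1b at 43.2, 143 and 59.8 CPM and Upk3a at 16.4, 77.1 and 18.2 CPM in replicates 1, 3 and 4. Replicate 3 held 3.23 to 4.69 times the lowest library for these genes and was the highest for each.

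The other 5 genes did not pass in that comparison. With the inhibitor Upk1a stood at 20.6, 67.3 and 35.2 CPM (log2 change 1.67, SE 0.57, edgeR adjusted p = 0.0982) and Sprr1a at 151, 319.8 and 181 CPM (1.49, SE 0.49, edgeR adjusted p = 0.0863), and DESeq2 called both (adjusted p = 0.0339 and 0.0288). Psca stood at 38.3, 104 and 41.9 CPM (1.68, SE 0.82, edgeR adjusted p = 0.242), Upk3b at 12.6, 22.1 and 13.5 CPM (1.48, SE 0.77, edgeR adjusted p = 0.268) and Sprr2f gave 0.54 (SE 0.43, edgeR adjusted p = 0.499). Sprr2f thus had the smallest log2 change of the 8.
With column totals and with a fit on only these 2 groups 0 genes passed, and without the filter on low counts 1 did. Leaving out fl/fl UUO replicate 1 or 3, or replicate 1 or 3 of the LY2109761 group, left 0 calls, and leaving out fl/fl UUO replicate 2 left 2. Without replicate 3 of the LY2109761 group the changes were 1.84 for Upk2, 1.65 for Upk1b and 1.75 for Upk3a, with edgeR adjusted p of 0.149, 0.185 and 0.279. That library is also the fl/fl one with Pcmt1 in the tKO range. The mitochondrial share was 12.1% to 16.4% with the inhibitor against 7.43% to 7.67% without. Markers listed for other tissues moved as well. The summed level of 7 perirenal fat genes was 97.3 to 208 CPM with the inhibitor against 53.8 to 63.9 CPM without. All 6 of them that were tested had log2 changes above 0, with 1 called. Most of the sum was Fabp4, at 95.3 to 169 CPM against 50.5 to 61.9 CPM. Adipoq stood at 4.14, 6.14 and 0.0969 CPM in replicates 1, 3 and 4 with the inhibitor. Without it Adipoq stood at 0.291 to 0.387 CPM, above the value in replicate 4. The 8 mesothelium and capsule genes other than Upk1b and Upk3b summed to 439 to 475 CPM against 377 to 415 CPM. Most of that sum was Cpe and Krt19, which moved in opposite directions. Cpe stood at 194 to 241 CPM with the inhibitor against 242 to 259 CPM without. Krt19, also a collecting duct gene, stood at 140 to 214 CPM against 73.1 to 107 CPM. The part of all these markers in the result was not tested.

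In tKO mice LY2109761 gave 0 calls among the 8 genes by edgeR, beside 0.171% of all genes tested, with 1 at an unadjusted p under 0.05 and 0 by DESeq2. Upk1a stood at 30.7, 40.7 and 18.2 CPM with the inhibitor against 21, 7.43 and 5.51 CPM without, overlapping (log2 change 1.40, SE 0.57, edgeR adjusted p = 0.221). Sprr2f changed by −0.03 (SE 0.43, 95% interval −0.97 to 0.91, edgeR adjusted p = 0.983). Upk2 gave 0.52 in tKO against 2.64 in fl/fl, and the difference between the genotypes was −2.11 (SE 0.80, unadjusted p = 0.0182, edgeR adjusted p = 0.091). For that interaction edgeR called 0 of the 8 genes, beside 13.8% of all genes, with 2 at an unadjusted p under 0.05, while DESeq2 called 1 lower, Upk2 (adjusted p = 0.0459). These values include fl/fl replicate 3 with LY2109761, the library with Pcmt1 in the tKO range. Leaving out 1 library at a time gave −2.71 to −1.31 for Upk2, with edgeR adjusted p of 0.0508 to 0.290. A difference in the effect of LY2109761 between genotypes was therefore not detectable for these genes with edgeR.

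**Figure D5:**
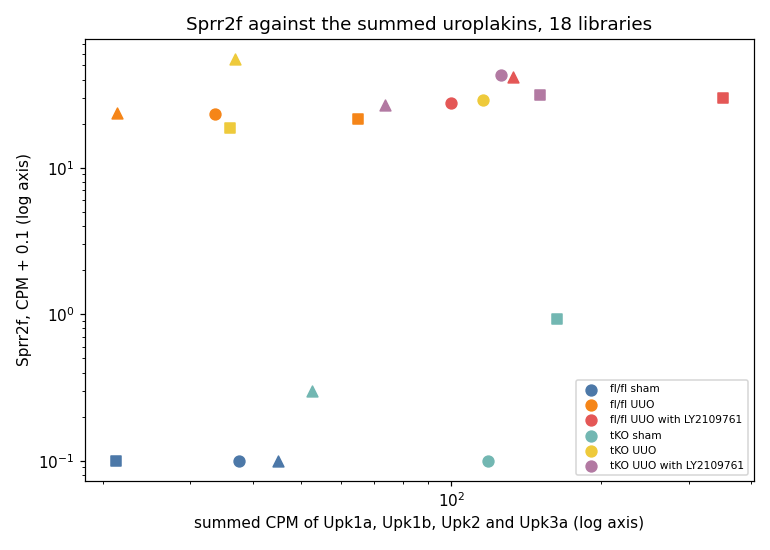
Level of Sprr2f, in CPM plus 0.1, against the summed level of Upk1a, Upk1b, Upk2 and Upk3a in CPM, both on log axes, for the 18 libraries. Colours are the groups and the marker shapes the libraries of a group. The sham libraries hold 0 to 0.831 CPM of Sprr2f at 21.2 to 163 CPM of the plaque genes, and the UUO libraries 18.7 to 55.2 CPM at 21.3 to 351 CPM.

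Sprr2f therefore had a level of its own at a given amount of plaque RNA. Replicate 2 of tKO sham held 163 CPM of the 4 plaque genes and 0.831 CPM of Sprr2f. Replicate 3 of fl/fl UUO held 21.3 CPM of the plaque genes and 23.7 CPM of Sprr2f. Sprr2g, another gene of the family, had the same layout, at 0.0740 to 1.20 CPM in the 6 sham libraries and 9.54 to 16.5 CPM in the 6 UUO libraries with DMSO, and rose by 5.02 in fl/fl (SE 0.52, edgeR adjusted p = 2.8e-06) and by 3.78 in tKO (SE 0.50, edgeR adjusted p = 2.4e-05). Sprr2a1 was already at 12.6 to 147 CPM in sham libraries.

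Levels between the 8 genes were compared in FPKM. Sprr1a was the most abundant in 5 of the 6 groups, from 68.6 ± 54.9 in tKO sham to 319 ± 125 in fl/fl UUO with LY2109761 (SD, n = 3), and in fl/fl sham Psca was first at 40.5 ± 42.7, within its spread of Sprr1a. Sprr2f was second in both UUO groups with DMSO, at 46.7 ± 2.06 and 71.0 ± 36.4 FPKM. Psca was second in both LY2109761 groups, at 84.4 ± 49.2 in fl/fl and 99.96 ± 68.1 in tKO. The 4 plaque genes stood between 2.23 ± 0.822 FPKM (Upk1b in fl/fl sham) and 42.6 ± 26.9 FPKM (Upk1b in fl/fl UUO with LY2109761), and in the 5 groups other than fl/fl sham neighbours in their order differed by less than the larger of their SDs. In fl/fl sham Upk3a (7.41 ± 3.41 FPKM) and Upk1a (6.32 ± 2.17) lay above Upk2 (3.71 ± 1.78) and Upk1b (2.23 ± 0.822), and the step from Upk1a to Upk2 was larger than either SD (n = 3). Upk3b was the least abundant of the 8 in all 4 UUO groups, at 2.02 ± 0.592 FPKM in fl/fl UUO.

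Libraries were far apart in Psca and Upk3b within fl/fl sham, tKO sham and tKO UUO with LY2109761. In tKO sham Psca ran from 13.0 to 92.9 CPM and Upk3b from 2.79 to 42.0 CPM, with replicate 1 the highest for both. In fl/fl sham, replicate 3 held 96.1 CPM of Psca and 37.9 CPM of Upk3b, and in tKO UUO with LY2109761 replicate 2 held 129 CPM of Psca and 41.2 CPM of Upk3b. The lowest libraries of those groups held 9.10 and 26.9 CPM of Psca. The same 2 libraries were the highest of their groups for 6 and 5 of the 8 genes. The second of these high libraries, tKO UUO replicate 2 with LY2109761, also had the most Aqp2 (204 CPM) and Aqp4 (116 CPM), which encode water channels of the collecting duct, and the most Lypd2 (15.2 CPM) among the 12 UUO libraries, where the next highest values were 170.2, 16.4 and 2.41 CPM. Of the markers of mesothelium, which also makes Upk1b and Upk3b, Lrrn4 reached 0.623 CPM and was at 0 in 11 libraries, Muc16 reached 0.519 CPM and Bnc1 0.569 CPM. Msln, the mesothelin gene, was present in every library, at 1.41 to 32.5 CPM, and Wt1, which podocytes make as well, at 1.63 to 13.9 CPM. The summed level of the 8 listed genes other than Upk1b and Upk3b was 162 to 218 CPM in fl/fl sham, 377 to 415 in fl/fl UUO, 115 to 199 in tKO sham and 256 to 350 in tKO UUO. By mean FPKM the list was led by Cpe and Krt19. Krt19 is also a collecting duct gene, so the sum is not particular to mesothelium. The part of these genes in the levels was not tested. The list of mesothelium and capsule genes held 10, of which 7 were tested, Upk1b and Upk3b among them. After obstruction 2 rose and 1 fell in fl/fl and 1 rose and 1 fell in tKO. These stand beside 39.6% and 41% of all genes called, and the count in fl/fl is near that share.

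Other genes listed as urothelial, 30 in a list of keratins, differentiation factors and plaque-associated genes, changed in both directions after obstruction. Of 28 tested, 10 rose and 4 fell in fl/fl (median 0.79) and 7 rose and 5 fell in tKO (median −0.06), beside 39.6% and 41% of all genes called in either direction, so the 12 of 28 called in tKO are near the share of all genes. Krt20 rose by 8.38 in fl/fl (SE 0.86, edgeR adjusted p = 2.6e-06), from 0.0710 to 0.450 CPM in sham to 47.5 to 101 CPM in UUO. The plaque genes had a median log2 change of 0.09 in the same comparison, and Krt20 followed them over the libraries with r = 0.51. Which cells made Krt20 was not tested. Krt14, a basal keratin, rose by 4.41 (SE 0.60, edgeR adjusted p = 3.3e-05) and Sfn, which encodes the 14-3-3 sigma protein of epithelia, by 2.84 (SE 0.29, edgeR adjusted p = 2.8e-06). Krt5 stood at 2.59 to 4.69 CPM in fl/fl sham and at 17.0 to 58.0 CPM in fl/fl UUO, a rise of 3.25 (SE 0.74, edgeR adjusted p = 0.0024). Aqp3, also a collecting duct gene, fell by 3.57 (SE 0.46, edgeR adjusted p = 2.1e-05). In tKO mice Krt17 rose from 0 in all 3 sham libraries to 4.31 to 8.56 CPM in UUO (edgeR adjusted p = 9.2e-05), Sfn rose by 1.90 (SE 0.28, edgeR adjusted p = 7.8e-05), and Tmprss2 fell by 1.37 (SE 0.15, edgeR adjusted p = 4.0e-06). The most abundant genes of the list, Cldn4, Sfn and Aqp3, are also made by kidney tubules, and the summed level of the list ran from 920 to 1899 CPM over the 18 libraries. It was 1491 to 1899 CPM in fl/fl UUO with LY2109761, above the 1042 to 1417 CPM of fl/fl UUO, and overlapped between sham and UUO in both genotypes.

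In tKO sham against fl/fl sham 6 of the 28 were higher and 0 lower, beside 12.3% of all genes called in either direction. Among them were Krt5 (2.72, SE 0.73, edgeR adjusted p = 0.0276) and Trp63 (1.58, SE 0.43, edgeR adjusted p = 0.0281). With LY2109761, Snx31 (1.72, SE 0.39, edgeR adjusted p = 0.0256) and Fxyd3 (1.88, SE 0.48, edgeR adjusted p = 0.0376) were higher in fl/fl, and 0 of 28 were called in tKO. These 2 of 28 are near the 5.15% of all genes called in fl/fl, and in tKO 0.171% of all genes were called. Of 19 other small proline-rich and cornified envelope genes 8 were tested, of which 5 rose in fl/fl (median 2.62) and 2 in tKO, namely Sprr2g and Sprr2d. Of all genes tested 20.9% rose in fl/fl and 21.6% in tKO, so the count in tKO is near that share. Sprr2a3 rose by 3.59 in fl/fl (SE 0.86, edgeR adjusted p = 0.0035), Krt6a from 0 in all 3 sham libraries to 0.161 to 0.776 CPM (edgeR adjusted p = 0.0104) and Sprr2a1 by 2.28 (SE 0.66, edgeR adjusted p = 0.0122). With LY2109761 0 of the 8 passed in tKO.

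The tissues beside the pelvic lining were read from further lists, whose counts also stand beside the 39.6% and 41% of all genes called. Of 14 smooth muscle genes tested, 5 rose and 3 fell after obstruction in fl/fl and 2 rose and 3 fell in tKO, with sums of 609 to 1249 CPM over all libraries. Their gut and ureter actin Actg2 stood at 0.148 to 0.965 CPM in fl/fl sham, 1.13 to 6.32 in fl/fl UUO and 0.997 to 14.7 in tKO sham, where it was higher than in fl/fl sham by 3.75 (SE 0.95, edgeR adjusted p = 0.0219). Tagln, the most abundant of the list, stood at 37.2 to 77.2 CPM in fl/fl sham and 169 to 266 in fl/fl UUO. Acta2 overlapped between those groups, at 39.4 to 92.3 and 76.9 to 161 CPM. Ckb was lower in fl/fl UUO, at 91.4 to 104 CPM against 173 to 263 CPM in sham. Myh11 was lower too, at 11.3 to 15.6 CPM against 32.5 to 71.7 CPM. Of 12 papilla and inner medulla genes tested, 9 fell after obstruction in each genotype, with sums of 1323 to 4540 CPM in sham libraries and 332 to 1031 CPM in UUO libraries. Of 6 perirenal fat genes 5 fell in each genotype. Of 3 adrenal genes 1 rose in each genotype, Cyp21a1, which was at 0 in 6 libraries and averaged 0.152 FPKM. Of 8 genes of the kidney itself 5 fell in each genotype, Lrp2 by 1.53 in fl/fl (SE 0.24, edgeR adjusted p = 0.00013), and 1 rose in fl/fl. Of 8 relatives of Psca in the Ly6 family, 1 rose and 3 fell in fl/fl and 0 rose and 2 fell in tKO, Lypd2 among those that fell in both. Their part in the levels of the 8 genes was not tested.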

How the data were processed

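Gene-level counts and FPKM of 18 mouse kidney libraries, 3 in each of 6 groups, were used. The authors deposited raw counts and FPKM for each library in 1 table. Per the submitters' processing notes, fastp, HISAT2 and StringTie were used with GRCm38/mm10. Versions, annotation, counting settings and strand handling are not given in the sources used here. Tables of HK-2 cells and of other whole kidneys list none of the 8 genes and enter no comparison.

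Counts were tested with edgeR 4.0.16 (R 4.3.3, limma 3.58.1) by its quasi-likelihood test in 1 fit over all 18 libraries, with TMM scaling and the filterByExpr filter, which left 19256 genes. Adjusted p-values are Benjamini-Hochberg over all of these, with a threshold of 0.05, for 7 group comparisons and 2 interactions. The fit was tested on simulated counts. Alternatives were column totals, no filter, DESeq2 1.42.0, a fit on only the groups compared, a replicate block and leaving out each library. FPKM deposited by the authors served for levels between genes and for ratios within a library, given without a test (SciPy 1.17.1, Python 3.11.15). A value of 0 counts was bounded with a floor of 3 counts. The 95% interval on a ratio of pooled counts covers counting error only. The 95% interval on a log2 change was taken from the SE of the edgeR fit, which rests on the spread among libraries.

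Likeness used log2(CPM + 0.5) less the group mean, over genes with a mean of at least 1 CPM. From each list the most abundant 3 genes and up to 4 of those past the threshold after obstruction with the smallest p were to be named; others named were chosen after their values were seen. The 8 genes, the lists and the rules were chosen with earlier results of these data known. Libraries with the same replicate number did not deviate together, with r of −0.138 to 0.143 over 19 pairs, of which 1 was above 0.1. Promoter sequences came from RefSeq (GRCm38.p6) and gene positions from GENCODE M21.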

Additional observations from a re-analysis of the deposited data

How the results depend on the processing

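The counts of the 8 genes past the threshold moved as follows. After obstruction in fl/fl, DESeq2 gave 4, column totals 3, the 2 groups alone 3, and leaving out 1 library 2 to 3, in place of 2. After obstruction in tKO, leaving out 1 library gave 1 to 3. For tKO against fl/fl in sham, column totals gave 0, the 2 groups alone 0, and leaving out 1 library 0 to 4, in place of 3. For LY2109761 in fl/fl UUO, column totals gave 0, no filter 1, DESeq2 5, the 2 groups alone 0, and leaving out 1 library 0 to 3, in place of 3. For the genotype by LY2109761 interaction DESeq2 gave 1. With the replicate block, 2, 1, 1 and 2 genes passed after obstruction in fl/fl, after obstruction in tKO, in tKO against fl/fl sham and for LY2109761 in fl/fl. The labels do not say whether replicate numbers pair the samples. The cause of these moves was not tested.

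Some log2 changes that did not pass turned direction. With the replicate block, Upk1a became −0.021 and Upk2 −0.075 after obstruction in fl/fl, Upk3b −0.078 in tKO against fl/fl sham, Psca −0.13 in tKO against fl/fl with LY2109761, and Sprr2f 0.039 for LY2109761 in tKO. With column totals, Upk1b became 0.62, Upk2 0.27 and Psca 0.015 after obstruction in tKO.

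Leaving out 1 library gave these ranges. After obstruction in fl/fl: Upk1a −0.29 to 0.44 and Upk2 −0.53 to 0.44. After obstruction in tKO: Upk1b −1.04 to 0.032 and Sprr1a −0.14 to 1.005. For tKO against fl/fl in sham: Upk3b −0.55 to 0.74 and Psca −0.22 to 1.56. In UUO: Upk1a −0.99 to 0.23 and Upk1b −0.078 to 1.23. With LY2109761: Upk1a −0.78 to 0.10, Upk3a −1.31 to 0.21, Upk3b −0.69 to 0.76, Psca −0.50 to 0.84 and Sprr2f −0.19 to 0.23. For LY2109761 in tKO: Sprr2f −0.33 to 0.49. For the genotype by obstruction interaction: Upk3a −1.45 to 0.33, Upk3b −0.29 to 1.01 and Psca −0.81 to 0.97. For the genotype by LY2109761 interaction: Upk1a −0.68 to 0.54, Upk3b −1.12 to 0.31 and Psca −1.24 to 0.087. The log2 ratio of Upk3a to Upk1b after obstruction, whose alternatives were chosen after seeing the data, stayed between −1.87 and −1.60. That of Upk2 to Upk1a ranged over −0.014 to 0.36 after obstruction and −0.21 to 0.16 with LY2109761, that of Upk3a to Upk1b over −0.11 to 0.15 and that of Upk1b to Upk1a over −0.060 to 0.29 with LY2109761. Depth limits Sprr2f in sham and Upk3b in tKO sham replicate 3, which had 14 counts.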

Other observations

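The separate whole-kidney table lists none of the 8 genes, but lists 11 of the 122 genes of the lists used here, among them Sprr2a1, the gene whose library-to-library pattern was closest to the plaque genes. It stood at 3.37, 3.19, 4.55 and 2.52 FPKM in the KO libraries and at 5.76, 8.88, 5.24 and 7.64 FPKM in the WT libraries, means of 3.41 ± 0.844 and 6.88 ± 1.69 (SD, n = 4). The 2 groups did not overlap. The table holds genes the authors selected, so no test was made.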
